A study of Mus musculus with 12 samples.

Results

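The 10 genes Cxcl1, Cxcl2, Cxcl9, Cxcl10, Cxcl12, Cxcl13, Ccl2, Ccl6, Ccl9 and Ccl24 encode chemokines, the small secreted proteins that attract white blood cells, and were followed in mouse liver under acute iron overload and glucocorticoid treatment. They were taken by name from a table of 55414 Ensembl genes, of which 13857 held enough reads to be tested, and all 10 were among those tested. Female C57Bl/6J mice were injected with 0.9% NaCl or with 300 mg/kg FeSO4 and 6 h later with PBS or with 10 mg/kg dexamethasone (DEX), a synthetic agonist of the glucocorticoid receptor (GR), and livers were taken after another 2 h, 8 h after the first injection. This gave 4 groups of 3 mice, named NaCl/PBS, NaCl/DEX, FeSO4/PBS and FeSO4/DEX, with 1 mRNA library per mouse. The mice were 8 to 12 weeks old, a range stated for all animals of the work and not for each group. DEX acted for 2 h, after iron had acted for 6 h.

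Chemokines act through G protein-coupled receptors on the cells they attract. Cxcl1 and Cxcl2 recruit neutrophils through Cxcr2, Ccl2 recruits monocytes through Ccr2, Cxcl9 and Cxcl10 recruit activated T cells and NK cells through Cxcr3, Cxcl12 holds and guides cells through Cxcr4, Cxcl13 draws B cells through Cxcr5, Ccl6 and Ccl9 are CC chemokines of the macrophage lineage that signal through Ccr1, and Ccl24 attracts eosinophils through Ccr3. In the liver, hepatocytes, Kupffer cells (the resident macrophages), sinusoidal endothelial cells and stellate cells all make chemokines. Several of these genes are classical targets of NF-kB, the transcription factor activated by IL-1 and TNF, and GR represses many NF-kB targets. Whole liver was sequenced, so fewer cells of a type and less RNA per cell cannot be told apart.

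In the mouse genome (GRCm39), 6 of the genes lie on chromosome 5: Cxcl1 at chr5:91039094-91040974 and Cxcl2 at chr5:91051730-91053797 on the plus strand, Cxcl9 at chr5:92469206-92475945 and Cxcl10 at chr5:92494497-92496748 on the minus strand, Cxcl13 at chr5:96104810-96108927 on the plus strand, and Ccl24 at chr5:135598668-135601905 on the minus strand. Cxcl12 lies at chr6:117144945-117158328 on the plus strand. Ccl2 lies at chr11:81926397-81928279 on the plus strand, and Ccl9 (chr11:83463745-83473161) and Ccl6 (chr11:83478708-83483913) are neighbours on the minus strand of the same chromosome. All 10 are protein-coding. Cxcl10 lies wholly within Art3, a gene of the opposite strand with 22 to 47 reads per library, and Ccl6 lies within E230016K23Rik, an opposite-strand lncRNA with 0 to 2 reads per library. Of the 2259 different stretches of 100 bases (the read length) in Cxcl2 transcripts, 69 also occur in Cxcl3, and no such stretch of the other 9 genes occurs in another gene.

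The promoter windows of Cxcl1, Cxcl2 and Cxcl10 are shown since these were the members of the 10 whose window, 250 bases before to 50 bases after the start site of the canonical transcript, held the NF-kB letters GGANNTTCC, which are in capitals. They were read 5′ to 3′ on the strand of the gene from GRCm39.
Cxcl1, chr5:91038844-91039143, plus strand: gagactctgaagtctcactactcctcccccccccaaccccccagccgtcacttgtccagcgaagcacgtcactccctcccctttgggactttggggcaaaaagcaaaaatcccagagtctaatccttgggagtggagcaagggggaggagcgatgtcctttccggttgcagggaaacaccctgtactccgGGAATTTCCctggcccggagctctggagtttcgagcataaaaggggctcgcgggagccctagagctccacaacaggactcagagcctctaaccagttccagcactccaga
Cxcl2, chr5:91051480-91051779, plus strand: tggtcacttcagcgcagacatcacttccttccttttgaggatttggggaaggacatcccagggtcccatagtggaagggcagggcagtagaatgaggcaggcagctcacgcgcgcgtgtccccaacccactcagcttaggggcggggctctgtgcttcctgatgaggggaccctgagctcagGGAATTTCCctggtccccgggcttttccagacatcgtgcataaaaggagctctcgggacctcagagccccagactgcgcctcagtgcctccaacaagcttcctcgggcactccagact
Cxcl10, chr5:92496699-92496998, minus strand: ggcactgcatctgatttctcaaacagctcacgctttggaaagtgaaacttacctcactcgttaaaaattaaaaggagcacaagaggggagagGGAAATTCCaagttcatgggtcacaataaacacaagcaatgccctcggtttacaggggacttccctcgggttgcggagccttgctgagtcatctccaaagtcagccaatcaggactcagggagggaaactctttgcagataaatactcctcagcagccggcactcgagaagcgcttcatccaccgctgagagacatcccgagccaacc
The match began 60 bases before the start site in Cxcl1 and 68 bases before it in Cxcl2, with the same letters GGAATTTCC in both, and 158 bases before it in Cxcl10, with GGAAATTCC. These letters occurred in 4.59% of the 21770 promoter windows of protein-coding genes, searched on both strands. Other forms of the NF-kB site were not searched, so an unmarked stretch or window can still hold one. The interferon-response letters GAAANNGAA occurred in Cxcl9 and Cxcl10 (8.78% of all windows), the AP-1 letters TGANTCA in Cxcl9, Cxcl10 and Ccl9 (7.14%), and the glucocorticoid-response letters ACANNNTGT in Cxcl1 (5.95%), where they began 75 bases before the start site and did not overlap the NF-kB letters. A match is a description of these windows, and the windows of Cxcl12, Cxcl13, Ccl2, Ccl6 and Ccl24 held none of the 4 motifs.

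The libraries held 16335651 to 23827340 reads assigned to genes (median 19602514), and the 10 genes together took 0.0279% to 0.075% of them. Levels are given as normalized counts, that is reads scaled by TMM factors to a library of average size, or as reads where few were found. Of 10 hepatocyte markers all were detected, with summed levels of 2095000 or more in every liver. Mouse 2 of the NaCl/PBS group stood apart from mice 1 and 3 in inflammatory genes: Il1b, the IL-1β gene, had 227 reads against 50 and 35, and Tnf had 24 reads against 5 and 9 (both genes, like Marco, S100a9 and Ly6g below, were chosen after their values were seen). The same liver had the highest Cxcl1, Cxcl2, Cxcl10, Cxcl13 and Ccl2 of its group, while its Cxcl9, Cxcl12, Ccl6, Ccl9 and Ccl24 lay beside those of the other mice, as the plot of the 3 saline livers shows. Each result that rests on this liver is therefore given with and without it.

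**Figure D1:**
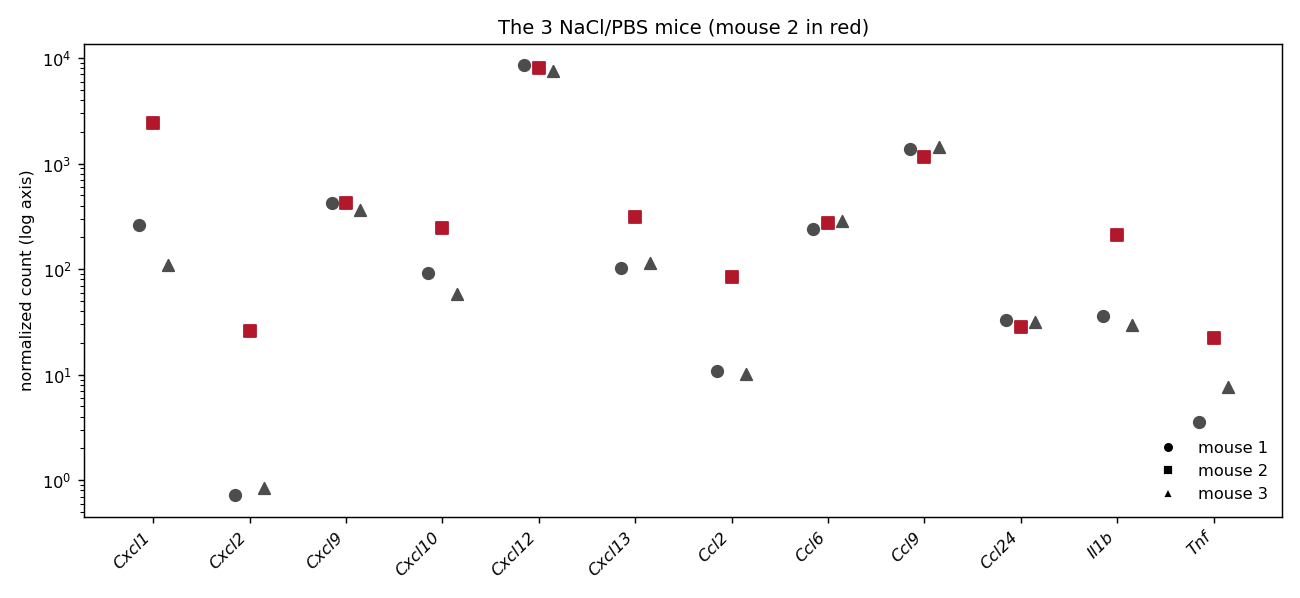
Normalized counts (log axis) of the 10 chemokine genes and of Il1b and Tnf in the 3 NaCl/PBS livers, 1 point per mouse with mouse 2 in red. Mouse 2 lies above mice 1 and 3 for Cxcl1 (2446 against 260 and 109), Cxcl2, Cxcl10, Cxcl13, Ccl2, Il1b and Tnf.

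To read which chemokine transcripts prevailed, levels were divided by the exon length of each gene. Per kb, Cxcl12 was the highest of the 10 in the NaCl/PBS livers, with a level of 960.5 ± 58.4 (SD, n = 3), followed by Cxcl1 (499 ± 695) and Ccl9 (425 ± 46.9). The range of Cxcl1 (58.05 to 1300) held both neighbours, so its place in that order is not settled, while Cxcl12 and Ccl9 did not overlap. In the NaCl/DEX livers, Ccl9 (684 ± 124 per kb) and Cxcl12 (649 ± 25.6 per kb) led and overlapped each other. In both FeSO4 groups Cxcl1 took the first place, with 1439 ± 771 per kb in FeSO4/PBS and 709.8 ± 217 per kb in FeSO4/DEX, ahead of Ccl9 (459.7 ± 55.8 and 496 ± 24.7 per kb) without overlap in either group. Cxcl1 made up 40.7% to 65.6% of the summed level per kb of the 10 genes in the FeSO4/PBS mice and 29.5% to 45.5% in the FeSO4/DEX mice. It made up 0.168% to 1.07% in the NaCl/DEX mice, and 6.79%, 38.1% and 3.13% in NaCl/PBS mice 1, 2 and 3. Cxcl12 took 28.1% to 50.05% in the NaCl/PBS mice and 5.71% to 14.9% in the FeSO4/PBS mice, and these ranges do not overlap. At the low end per kb were Cxcl2 in both NaCl groups, Ccl2 in FeSO4/DEX and Cxcl13 in FeSO4/PBS.

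**Figure D2:**
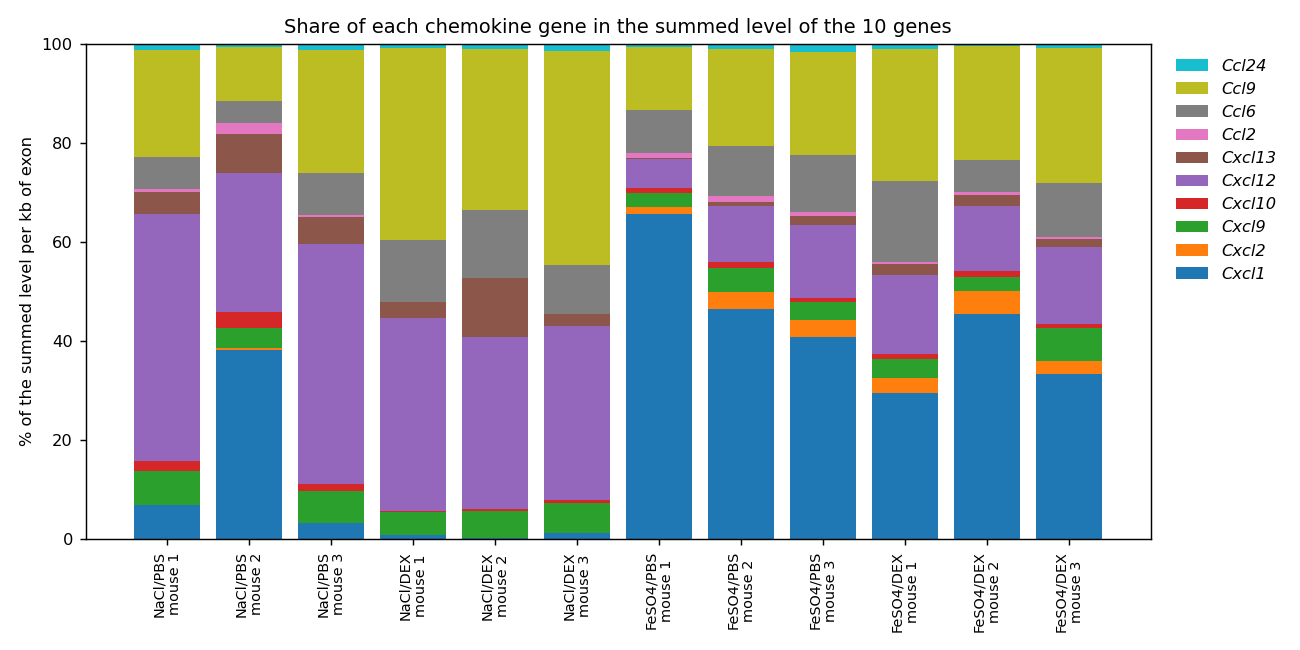
Share of each gene (%) in the summed level per kb of exon of the 10 chemokine genes, 1 stacked bar per mouse. Cxcl12 fills 28.1% to 50.05% of the NaCl/PBS bars, and Cxcl1 fills 29.5% to 65.6% of the bars of the 6 FeSO4 mice.

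FeSO4 alone, in FeSO4/PBS against NaCl/PBS livers, was followed by more Cxcl2 and Ccl6 and by less Cxcl12 and Cxcl13 mRNA at an FDR (Benjamini-Hochberg adjusted p of edgeR's quasi-likelihood test over all genes tested) of 0.05 or less. Thus 2 of 10 members were upregulated, while 27.2% of all genes tested were, and 2 of 10 were downregulated, while 27.3% of all genes tested were. DEX in saline mice, in NaCl/DEX against NaCl/PBS livers, downregulated Cxcl1, Cxcl10, Ccl2 and Cxcl12 and upregulated Ccl9, which is 4 of 10 members downregulated against 7.15% of all genes and 1 of 10 upregulated against 6.5%. These first comparisons share the NaCl/PBS mice and are not independent of each other. In the FeSO4 mice DEX changed 0 members in either direction, as it did 0% of all genes upwards and 0% downwards by edgeR. At an unadjusted p below 0.05 there were 1 member, Ccl24, and 900 genes in that comparison, and DESeq2 called no member and 5 genes in each direction. Between the 2 DEX groups, FeSO4/DEX against NaCl/DEX, 3 members were higher (22.4% of all genes) and 2 were lower (20.9% of all genes). The median LFC (log2 fold change) over the members was -0.03 for FeSO4, -0.56 for DEX in saline mice, -0.25 for DEX in FeSO4 mice and -0.07 between the DEX groups, and over all genes tested it lay between -0.02 and 0.01 in each of them.

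**Figure D3:**
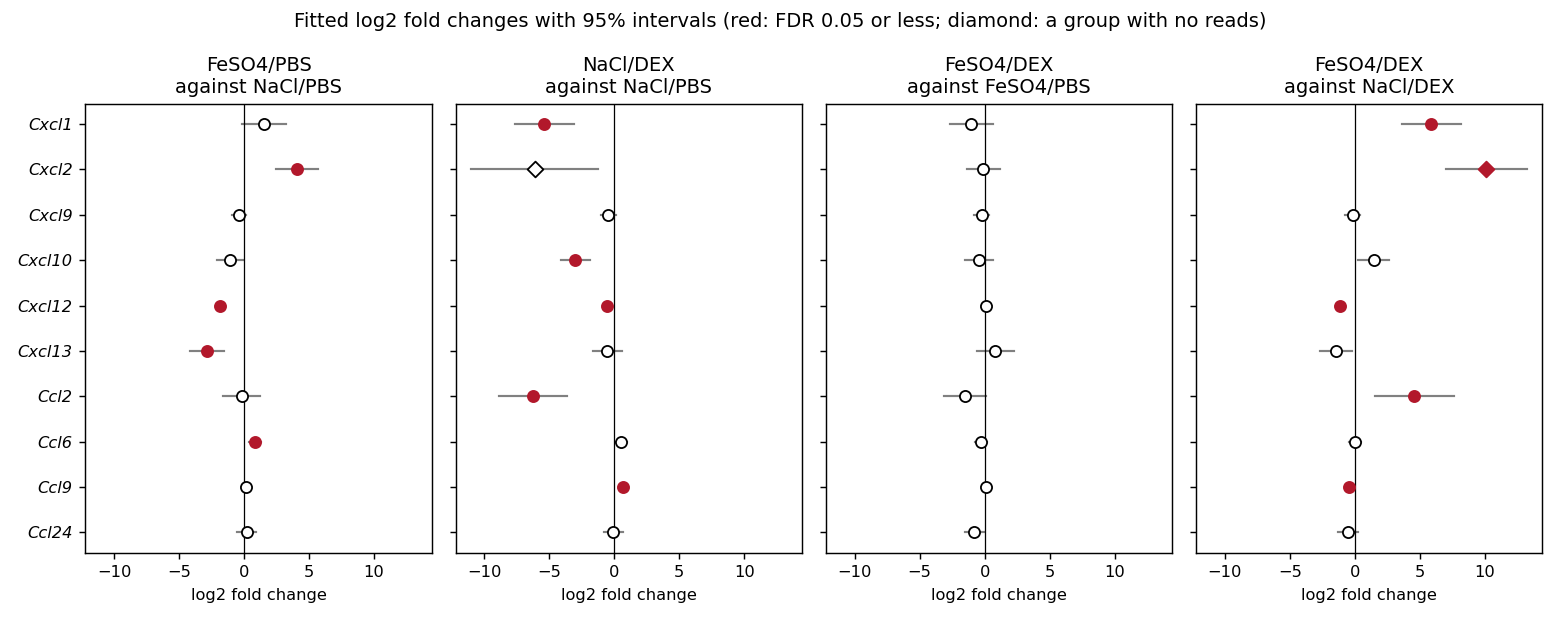
Fitted LFC (x axis) of each chemokine gene in 4 comparisons, with 95% confidence intervals as lines and red points for an FDR of 0.05 or less. DEX gives 5 red points in saline mice and none in FeSO4 mice, and the diamonds mark Cxcl2 where the NaCl/DEX livers had no reads, so that its fitted value depends on the prior count.

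Of the neutrophil attractants, Cxcl1 was high in all 6 FeSO4 livers and nearly silent after DEX in saline mice. Its normalized counts were 260, 2446 and 109 in NaCl/PBS mice 1, 2 and 3, 23.6, 5.64 and 38.3 in NaCl/DEX, 4316, 2301 and 1502 in FeSO4/PBS, and 1003, 1792 and 1210 in FeSO4/DEX. The NaCl/DEX group lay below all other livers, the FeSO4 groups overlapped each other, and NaCl/PBS mouse 2 lay within the FeSO4/PBS range. DEX lowered Cxcl1 in saline mice (LFC -5.39, SE 1.06, FDR = 0.00363), also without NaCl/PBS mouse 2 (LFC -3.05, FDR = 0.00442). In FeSO4 mice the LFC for DEX was -1.02 (95% CI -2.69 to 0.65, FDR = 0.829), an interval that spans no change and a sizeable fall. FeSO4 against saline gave an LFC of 1.53 that missed the threshold (SE 0.79, FDR = 0.114), and without NaCl/PBS mouse 2 it was 3.87 (FDR = 7.63e-05). With DEX in both groups, where that liver does not enter the means, FeSO4 livers had 59.7-fold more Cxcl1 (LFC 5.90, SE 1.07, FDR = 5.54e-04).

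Cxcl2, made by many of the same cells, had 1 read or none in every saline liver but NaCl/PBS mouse 2. It had 1, 28 and 1 reads in NaCl/PBS, 0, 0 and 0 in NaCl/DEX, 105, 189 and 112 in FeSO4/PBS, and 115, 146 and 88 in FeSO4/DEX. Every FeSO4 liver lay above every saline liver. FeSO4 raised Cxcl2 16.9-fold (LFC 4.08, SE 0.73, FDR = 5.58e-04), and without NaCl/PBS mouse 2 the LFC was 7.35 (FDR = 3.88e-06). Against a floor of 3 reads per library in the NaCl/DEX livers, FeSO4/DEX livers had at least 45.7-fold higher Cxcl2 (FDR = 1.39e-04). For DEX in saline mice the fall of Cxcl2 missed the threshold (fitted LFC -6.12, FDR = 0.0974). Without NaCl/PBS mouse 2 it was -2.84 (FDR = 0.368), and the call was made without NaCl/PBS mouse 1 (FDR = 0.0493), without a filter on low counts (FDR = 9.13e-08) and by DESeq2 (FDR = 0.00963). Its bound of at least 3.06-fold lower rested on NaCl/PBS mouse 2, since the other mice were themselves under the floor. In FeSO4 mice DEX left Cxcl2 with an LFC of -0.10 (95% CI -1.35 to 1.15, FDR = 0.982).

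Ccl2, the monocyte attractant also known as MCP-1, had few reads throughout: 15, 91 and 12 in NaCl/PBS, 0, 1 and 0 in NaCl/DEX, 35, 35 and 16 in FeSO4/PBS, and 10, 11 and 7 in FeSO4/DEX. NaCl/DEX lay below all other livers, and FeSO4/DEX lay below FeSO4/PBS without overlap. DEX lowered Ccl2 in saline mice (LFC -6.25, SE 1.21, FDR = 0.00318, and -4.52, FDR = 0.00355, without NaCl/PBS mouse 2), with 96.9 times as many summed normalized reads in NaCl/PBS (95% exact counting interval 17.1 to 3857). Of the 118 NaCl/PBS reads in that ratio 91 came from mouse 2, and the ratio was not computed without that liver. In FeSO4 mice the LFC for DEX was -1.49 (95% CI -3.10 to 0.12, FDR = 0.762), which did not pass the threshold although the 3 mice of each group did not overlap. The FeSO4 comparison turned on 1 liver, with an LFC of -0.18 (FDR = 0.835) over all mice and 1.54 (FDR = 0.0209) without NaCl/PBS mouse 2. Among DEX-treated mice Ccl2 was higher after FeSO4 (LFC 4.58, SE 1.42, FDR = 0.018), a ratio of 32 with a counting interval of 5.30 to 1310, and the call was lost without NaCl/DEX mouse 1 (FDR = 0.056) or mouse 3 (FDR = 0.058).

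Cxcl9 and Cxcl10, both interferon-inducible ligands of Cxcr3, are given side by side, and whether their changes differ was not tested. Cxcl10 had 129, 263 and 68 reads in NaCl/PBS, 11, 15 and 23 in NaCl/DEX, 76, 74 and 24 in FeSO4/PBS, and 47, 42 and 28 in FeSO4/DEX. The NaCl/DEX livers were again the lowest, without overlap with any other group. DEX lowered it in saline mice (LFC -2.99, SE 0.53, FDR = 0.00174, and -2.18, FDR = 0.00471, without NaCl/PBS mouse 2). In FeSO4 mice the LFC for DEX was -0.45 (95% CI -1.52 to 0.62). FeSO4 against saline gave -1.09 for Cxcl10 (FDR = 0.0605) and -0.29 (FDR = 0.563) without NaCl/PBS mouse 2. It was called lower without NaCl/PBS mouse 3 (LFC -1.46, FDR = 0.0142), by DESeq2 (FDR = 0.0425), with scaling by total reads alone (FDR = 0.0167) and without a filter on low counts (FDR = 3.37e-04). The FeSO4/DEX livers stood at 1.45 over the NaCl/DEX livers on the log2 scale (FDR = 0.0506), past the threshold without NaCl/PBS mouse 2, which enters only the spread there (FDR = 0.0136). Cxcl10 shares its position with Art3 on the other strand, which the counting may or may not have kept apart. Cxcl9 had normalized counts of 421, 425 and 359.7 in NaCl/PBS, 231, 295 and 353 in NaCl/DEX, 307, 381 and 219 in FeSO4/PBS, and 209.8, 182 and 395 in FeSO4/DEX. All groups but NaCl/PBS and NaCl/DEX overlapped, and its LFC lay between -0.46 and -0.16 in the 4 comparisons, with FDR values of 0.204 or more. After FeSO4 Cxcl9 was called lower with scaling by total reads alone (LFC -0.73, FDR = 0.0262) and without a filter on low counts (FDR = 0.043).

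**Figure D4:**
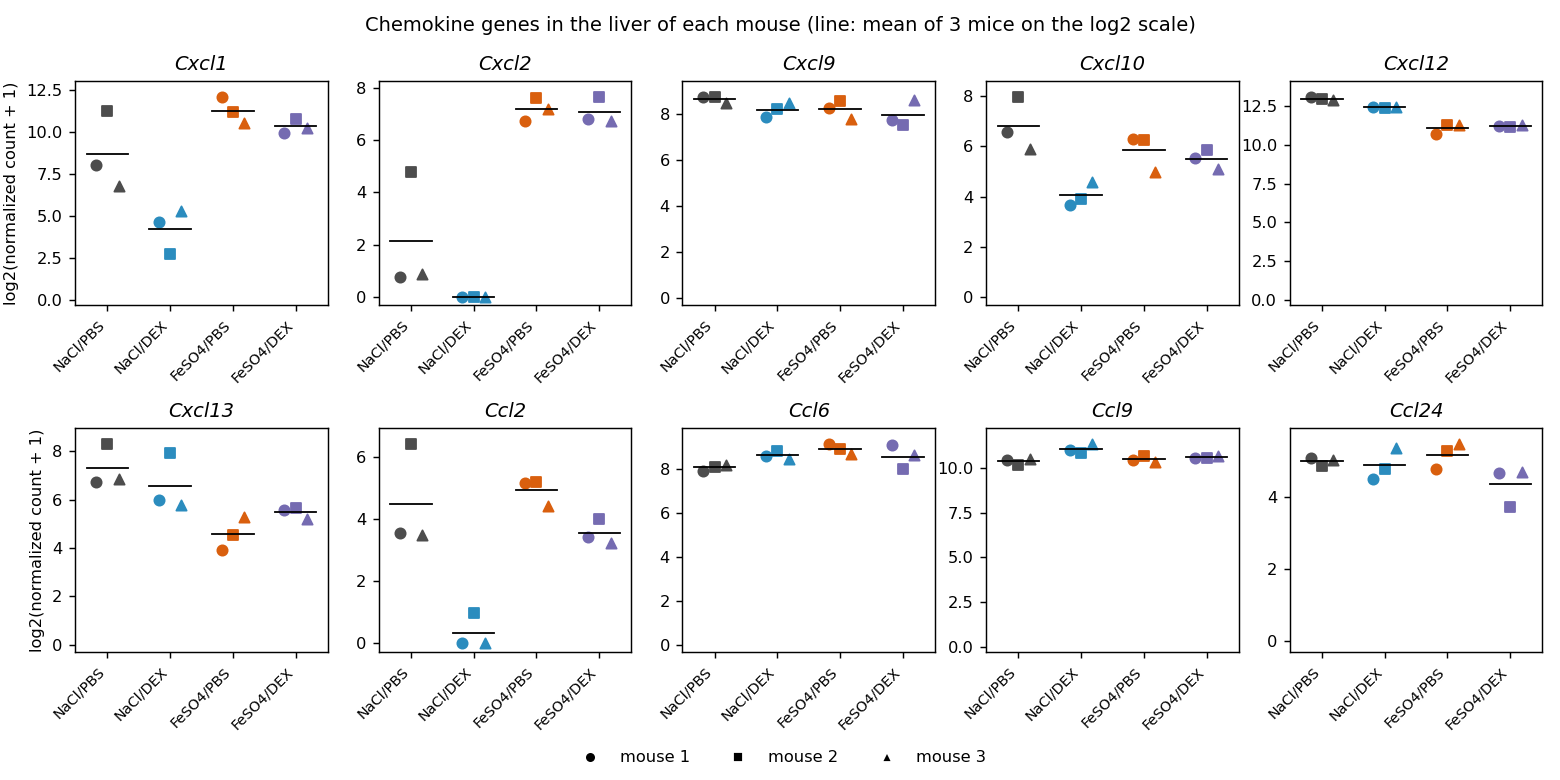
log2(normalized count + 1) of each chemokine gene in every liver, by group, with 1 symbol per mouse and a line at the mean of 3 mice on that scale. Cxcl1, Cxcl2, Cxcl10 and Ccl2 are lowest in the NaCl/DEX group, while Cxcl12 is highest in NaCl/PBS and lowest in the 2 FeSO4 groups.

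Cxcl12, the ligand that retains leukocytes and progenitors through Cxcr4, was lower after iron and, to a smaller extent, after DEX in saline mice. Its normalized counts were 8515, 7993 and 7541 in NaCl/PBS, 5493, 5173 and 5579 in NaCl/DEX, 1667, 2517 and 2444 in FeSO4/PBS, and 2396, 2304 and 2514 in FeSO4/DEX. The groups were ordered NaCl/PBS above NaCl/DEX above both FeSO4 groups without overlap, and the 2 FeSO4 groups overlapped. FeSO4 lowered it to 0.276 of the saline level (LFC -1.86, SE 0.14, FDR = 2.06e-07). The LFC for DEX in saline mice was -0.57 (SE 0.14, FDR = 0.0133), a call of Cxcl12 that was lost without NaCl/PBS mouse 1 (FDR = 0.0642) or NaCl/DEX mouse 2 (FDR = 0.0542). Among DEX-treated mice it was lower after FeSO4 (LFC -1.17, SE 0.14, FDR = 1.56e-05), and DEX in FeSO4 mice gave 0.12 (95% CI -0.17 to 0.42). Of 10 sinusoidal endothelial markers, a cell type that makes Cxcl12, 5 were lower and 2 higher after FeSO4, with summed levels of 6770 to 8360 in FeSO4/PBS against 8074 to 9279 in NaCl/PBS, which overlap. That sum holds Lyve1 and Cdh5, whose means rose from 252 to 1785 and from 731 to 1486 (named after their values were seen). Of 10 stellate cell markers 1 was lower and 3 were higher, with sums of 8841 to 11951 against 7539 to 7852, without overlap. Over all genes tested 27.3% were lower and 27.2% higher after FeSO4. The part of these cell types in the fall of Cxcl12 was not tested.

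Cxcl13, the B cell attractant, had normalized counts of 104, 311 and 115 in NaCl/PBS, 62.3, 244 and 53.4 in NaCl/DEX, 14.1, 22.4 and 38.3 in FeSO4/PBS, and 46.4, 48.9 and 35.7 in FeSO4/DEX. Every saline liver lay above every FeSO4 liver, and mouse 2 was the high one in both saline groups. FeSO4 lowered Cxcl13 (LFC -2.84, SE 0.61, FDR = 0.00141, and -2.15, FDR = 0.0071, without NaCl/PBS mouse 2). Among DEX-treated mice the LFC of Cxcl13 after FeSO4 was -1.46 (FDR = 0.0559), which passed the threshold without NaCl/DEX mouse 1 (FDR = 0.033) or mouse 3 (FDR = 0.0249) and was -0.42 (FDR = 0.379) without mouse 2 of both saline groups. For DEX in saline mice it was -0.55 (FDR = 0.56), which became 0.15 (FDR = 0.906) without NaCl/PBS mouse 2 and -1.60 (FDR = 0.0474) without NaCl/DEX mouse 2. Marco, a scavenger receptor of Kupffer cells and other macrophages, was high in the same pair of livers, with 1331 reads in NaCl/PBS mouse 2 and 1159 in NaCl/DEX mouse 2 against 441 to 723 in the other saline mice. The summed Kupffer cell markers of those livers were 16179 and 17485, within or next to the 14911 to 17403 of the other saline mice, and the mesothelial markers, a sign of liver capsule, were the lowest of their groups (56.1 and 41.4).

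The CC chemokines of the macrophage lineage moved less. Ccl6 had normalized counts of 242, 275 and 287 in NaCl/PBS, 384, 444 and 347 in NaCl/DEX, 555, 482 and 409 in FeSO4/PBS, and 538, 251 and 390.0 in FeSO4/DEX. NaCl/PBS was the lowest group, although FeSO4/DEX mouse 2 fell within it. FeSO4 raised Ccl6 1.80-fold (LFC 0.85, SE 0.21, FDR = 0.00403), a call that was lost when libraries were scaled by total reads alone (LFC 0.53, FDR = 0.0596). With DEX in saline mice the LFC of Ccl6 was 0.55 (FDR = 0.112), and the NaCl/DEX livers lay above the NaCl/PBS livers without overlap. The call was made with only the libraries compared (FDR = 0.00925) and without a filter on low counts (FDR = 0.0070). It was also made without FeSO4/DEX mouse 1 (FDR = 0.0498) or mouse 2 (FDR = 0.0324). In FeSO4 mice the LFC of Ccl6 for DEX was -0.29 (95% CI -0.74 to 0.17, FDR = 0.827). Between the DEX groups the LFC was 0.01 (95% CI -0.44 to 0.47).

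Ccl9, next to Ccl6 in the genome, was the member called higher with DEX in saline mice. Its normalized counts were 1378, 1158 and 1435 in NaCl/PBS, 2032, 1802 and 2553 in NaCl/DEX, 1399, 1618 and 1275 in FeSO4/PBS, and 1503, 1498 and 1634 in FeSO4/DEX. All 3 NaCl/DEX livers lay above all other livers. DEX raised Ccl9 1.61-fold in saline mice (LFC 0.69, SE 0.14, FDR = 0.00424), while in FeSO4 mice its LFC was 0.11 (95% CI -0.19 to 0.41, FDR = 0.909). Among DEX-treated mice Ccl9 was lower after FeSO4 (LFC -0.46, SE 0.14, FDR = 0.015), a call that was lost without NaCl/DEX mouse 3 (FDR = 0.0888). FeSO4 alone gave 0.11 (FDR = 0.515), and -0.21 with scaling by total reads alone. Ccl24, or eotaxin-2, had 46, 30 and 37 reads in NaCl/PBS, 20, 28 and 40 in NaCl/DEX, 26, 37 and 34 in FeSO4/PBS, and 25, 9 and 21 in FeSO4/DEX, and it passed the threshold in no comparison (lowest FDR = 0.277). Its LFC for DEX in FeSO4 mice was -0.78 (95% CI -1.54 to -0.01, FDR = 0.762).

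Whether iron changed the response to DEX was asked of the difference between the DEX responses, that is the LFC for DEX in FeSO4 mice minus that in saline mice. By edgeR 0 members were called higher and 0 lower, where 2.99% of all genes were called higher and 3.2% lower. By the same test 7 members had an unadjusted p below 0.05, as had 2830 of the 13857 genes tested. The difference was 4.36 (SE 1.31, FDR = 0.067) for Cxcl1, 2.55 (SE 0.73, FDR = 0.0562) for Cxcl10, 4.76 (SE 1.61, FDR = 0.103) for Ccl2 and 0.69 (SE 0.19, FDR = 0.0519) for Cxcl12. It was 6.02 (SE 2.40, FDR = 0.177) for Cxcl2, and 2.74 (FDR = 0.434) without NaCl/PBS mouse 2. For Ccl9 it was -0.58 (SE 0.20, FDR = 0.106) and for Ccl6 -0.84 (SE 0.30, FDR = 0.127). For Cxcl9, Cxcl13 and Ccl24 it was 0.24 (FDR = 0.767), 1.38 (FDR = 0.39) and -0.71 (FDR = 0.46). DESeq2 called 4 members higher, Cxcl1, Cxcl10, Cxcl12 and Ccl2, and 1 lower, Ccl9, counts that are not set against its share over all genes here. Without NaCl/PBS mouse 2 the differences of Cxcl1, Cxcl10 and Ccl2 fell to 2.02 (FDR = 0.139), 1.73 (FDR = 0.103) and 3.03 (FDR = 0.112). For these members a DEX response that passed the threshold in saline mice and not in FeSO4 mice was thus not shown by edgeR to differ between them.

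Of 28 other chemokine ligands, 10 had enough reads to be tested, and FeSO4 raised 3 and lowered 3 of them, with a median LFC of 0.39 against -0.02 over all genes. In saline mice DEX lowered 2 and raised 0 of these ligands, and DEX in FeSO4 mice changed 0 (0 at an unadjusted p below 0.05, and no gene of the 13857 was called by edgeR). Between the DEX groups 1 was higher and 1 lower after FeSO4. Over all genes tested, FeSO4 raised 27.2% and lowered 27.3%, and DEX in saline mice raised 6.5% and lowered 7.15%. Between the DEX groups 22.4% of all genes were higher and 20.9% lower. These shares apply to the lists that follow as well. Cxcl11, the third ligand of Cxcr3, fell after FeSO4 from a mean of 122 to 12.4 normalized counts (LFC -3.27, FDR = 7.29e-05), beside LFCs of -0.41 for Cxcl9 and -1.09 for Cxcl10, and whether these differ was not tested. Cxcl16, a membrane-bound ligand made by endothelial cells and macrophages, fell from 204 to 74.0 (LFC -1.47, FDR = 1.43e-05), and Ccl27a fell from 51.1 to 19.8 (LFC -1.37, FDR = 0.00367). Cxcl3, the close relative of Cxcl2 that shares sequence with it, had 0, 0 and 1 reads in NaCl/PBS and 10, 26 and 10 in FeSO4/PBS, and is named here after its values were seen. It passed the test (FDR = 3.33e-04), and with 1 read in the saline group its fitted fold is not given.

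Of 24 chemokine receptors, 14 were tested, and FeSO4 raised 5 and lowered 4 (median LFC 0.07), beside 27.2% and 27.3% of all genes tested. Cxcr2, the receptor of Cxcl1 and Cxcl2 and mainly a neutrophil gene, had 13, 22 and 2 reads in NaCl/PBS and 66, 73 and 59 in FeSO4/PBS (LFC 2.79, FDR = 2.41e-04). Ackr3, which scavenges Cxcl12, rose from 9, 9 and 3 reads to 62, 104 and 77 (LFC 3.91, FDR = 6.33e-06). Cxcl12 mRNA fell in the same livers, and a link between these changes was not tested. Ccrl2, an atypical receptor induced in activated myeloid cells, rose (LFC 2.33, FDR = 2.26e-05), as did Ackr2, a scavenger of inflammatory CC chemokines (LFC 1.67, FDR = 1.44e-04). Cmklr1, the chemerin receptor, fell (LFC -1.02, FDR = 0.0147, lost without FeSO4/PBS mouse 1 at 0.0578). Cxcr4, the signalling receptor of Cxcl12, stood at 14.0 in NaCl/PBS and 26.4 in FeSO4/PBS (FDR = 0.0877), and is named after its values were seen. So are the other receptors of members, with means under 50 in these groups. Ccr1 stood at 6.25 in NaCl/PBS and 40.7 in FeSO4/PBS, and Ccr2 at 46.7 and 13.6. Cxcr3 stood at 11.1 and 3.11, Cxcr5 at 2.64 and 3.79 and Ccr3 at 6.02 and 0.678. Of the receptors, DEX in saline mice lowered 1 and raised 0, DEX in FeSO4 mice changed 0 by edgeR (2 at an unadjusted p below 0.05), and between the DEX groups 6 were higher and 3 lower.

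Among 20 cytokines and receptors that can induce chemokines, 14 were tested, of which FeSO4 raised 6 and lowered 1. Over all genes tested FeSO4 raised 27.2% and lowered 27.3%. Il1r1, the signalling receptor of IL-1, rose (LFC 2.18, FDR = 2.39e-05), as did Il17ra (LFC 1.81, FDR = 1.86e-06) and Tnfrsf1a, the main TNF receptor (LFC 1.70, FDR = 1.05e-06). Genes of their ligands are named after their values were seen. Tnf had 5 to 24 reads in NaCl/PBS and 1 to 4 in FeSO4/PBS, and Il17a had 0 reads in both groups. In the same groups the means were 113 and 154 for Il1a and 92.6 and 105 for Il1b. Of these cytokines and receptors DEX lowered 5 and raised 2 in saline mice and changed 0 in FeSO4 mice by edgeR (0 at an unadjusted p below 0.05), and between the DEX groups 9 were higher and 1 lower after FeSO4. Of 14 feedback genes of NF-kB, FeSO4 raised 10 and lowered 0 (median LFC 1.03), among them Bcl3 (LFC 2.47, FDR = 1.35e-05), Nfkbib (LFC 2.21, FDR = 3.01e-08) and Nfkbiz (LFC 1.68, FDR = 0.0011), which encode nuclear or cytoplasmic IkB proteins. Of 20 interferon-inducible genes, FeSO4 lowered 15 and raised 1 (median LFC -0.85), and the largest falls were those of Gbp5 (LFC -1.96, FDR = 2.02e-04), Irf1 (LFC -1.87, FDR = 2.83e-06) and Igtp (LFC -1.74, FDR = 4.93e-05). In saline mice DEX lowered 6 and raised 2 of the NF-kB feedback genes and lowered 8 and raised 1 of the interferon-inducible genes, and in FeSO4 mice it changed 0 of either list by edgeR (2 and 3 at an unadjusted p below 0.05). Between the DEX groups the feedback genes were higher in 12 and lower in 0 of 14 cases after FeSO4, and the interferon-inducible genes were higher in 1 and lower in 8 of 20.

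Markers of other cell types were counted in the same comparisons, where FeSO4 raised 27.2% and lowered 27.3% of all genes tested. Of 12 neutrophil markers 7 were tested, and FeSO4 raised 5 and lowered 0, with summed levels of 770.3 to 931 in FeSO4/PBS and 575 to 690.5 in FeSO4/DEX against 137 to 309.5 in NaCl/PBS and 96.6 to 128 in NaCl/DEX. S100a9 had 405, 351 and 247 reads in FeSO4/PBS against 45, 95 and 38 in NaCl/PBS, whereas Ly6g, a defining surface marker, had 0 to 3 reads in every liver. NaCl/PBS mouse 2, with its high Cxcl1 and Cxcl2, also had the highest neutrophil sum of the saline mice (309.5). Of 10 monocyte markers 8 were tested, with 1 higher and 2 lower after FeSO4. All 14 Kupffer cell markers were tested, and FeSO4 lowered 10 and raised 0, with sums of 7975 to 9008 in FeSO4/PBS against 15059 to 17403 in NaCl/PBS, while DEX in saline mice changed 0 of them by edgeR (0 at an unadjusted p below 0.05). That sum includes the iron exporter gene Slc40a1, whose mean fell from 3713 to 967. The mean of C1qa went from 1057 to 806 and that of Cd68 from 244 to 280 (all 3 named after their values were seen). Of the T and NK cell markers 6 of 10 were tested and 0 were called after FeSO4 by edgeR (1 at an unadjusted p below 0.05), and of the B cell markers 5 of 8 were tested with 0 higher and 2 lower. The mesothelial markers gave 1 lower of 4 tested, the hepatocyte markers 6 higher of 10, and 7 of 8 pancreatic acinar markers were at 0 in all 12 livers. The part of these shifts in the levels of Cxcl1, Cxcl2, Ccl2 and Cxcl13 was not tested.

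**Figure D5:**
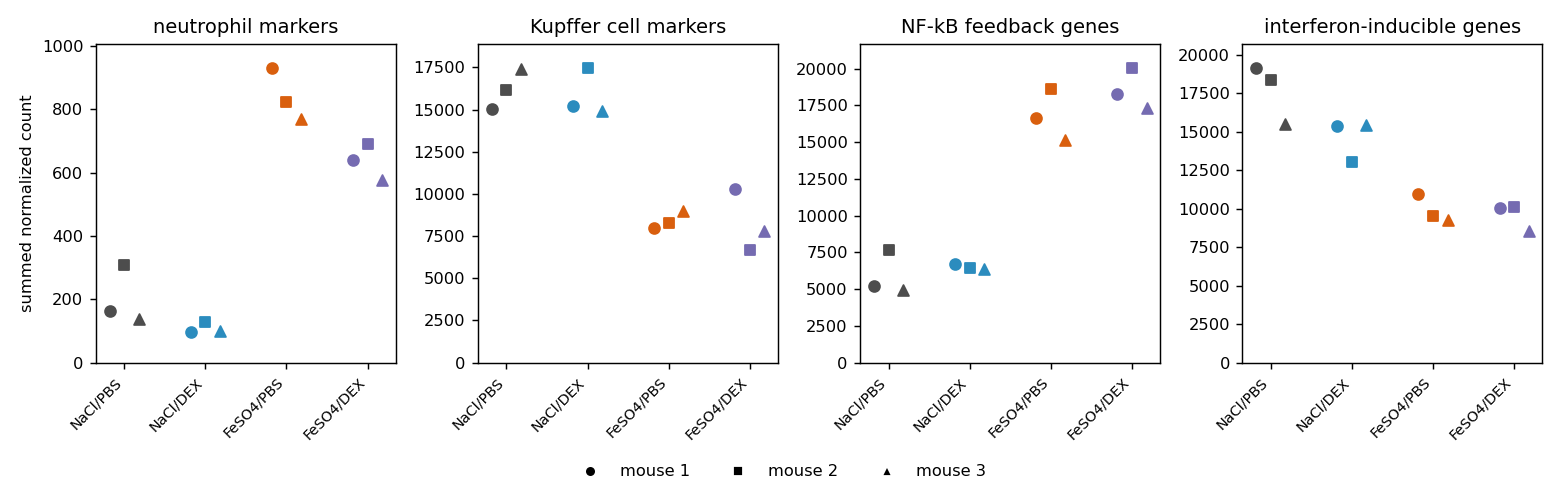
Summed normalized counts per liver of 12 neutrophil markers, 14 Kupffer cell markers, 14 NF-kB feedback genes and 20 interferon-inducible genes, by group, 1 point per mouse. Neutrophil sums are 575 or more in the FeSO4 groups and 309.5 or less in the NaCl groups, and the Kupffer sums, which include Slc40a1, fall to 6698 to 10292.

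The genes whose log2 CPM was most like that of each member over the 12 livers are given as a description, since the livers share the 4 treatments. Cxcl1 followed Icam1 (Pearson r = 0.96), which encodes an adhesion molecule for leukocytes, and Acod1 (0.96), which makes itaconate in macrophages. Ccl2 followed Il1b (0.97) and the inflammasome gene Nlrp3 (0.96). Cxcl2 followed Rgs1 (0.98), Cxcl9 followed the NK cell receptor gene Klrk1 (0.87) and Lyrm2 (0.86), and Cxcl10 followed Tgm1 (0.93) and Micall2 (0.93). Cxcl12 followed Xiap (0.99) and Plcb3 (0.99), Cxcl13 followed Pdilt (0.94) and the complement gene C8a (0.94), and Ccl9 followed Aco1, which encodes an iron-sensing RNA-binding protein (0.93). The values were lower for Ccl6 (Spty2d1 0.89, Gprc5b 0.89) and Ccl24 (Pcdhb17 0.86, Slc44a2 0.81). Among the members themselves, Cxcl1 ran with Cxcl2 (0.89) and Ccl2 (0.88), Ccl2 with Cxcl10 (0.88), and Cxcl12 with Cxcl13 (0.81), while the most opposed pairs were Ccl2 and Ccl9 (-0.86) and Cxcl12 and Cxcl2 (-0.83).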

How the data were processed

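mRNA of 12 mouse livers (4 groups of 3 mice) had been sequenced from stranded libraries, single-end for 100 cycles. The deposited values are raw counts per Ensembl gene, which the authors made with STAR 2.7.10b on mm39 (GRCm39) with GENCODE junctions, and which STAR output column (strand) was used is not given in the sources used here. Depth was 16335651 to 23827340 counts per library. Symbols and positions came from GENCODE vM39 (54749 of 55414 genes matched), and promoters from the GRCm39 sequence. Genes passing filterByExpr (13857) were fitted in edgeR 4.0.16 (R 4.3.3) with TMM scaling and 1 model of 4 group means, and tested with the quasi-likelihood test, two-sided, with Benjamini-Hochberg adjustment over all genes tested (FDR of 0.05 or less). SE is the LFC divided by the root of F, and 95% CIs use the degrees of freedom of each gene. CIs of read ratios are exact binomial (Clopper-Pearson) and, like the floor of 3 reads per library, cover counting error only. Levels per kb are normalized counts divided by the length of all exons of a gene.

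The members and lists were chosen with earlier results of these data known. All 10 members are described in every comparison. Other chemokine ligands and receptors are named where called after FeSO4 with a mean of at least 50 normalized counts in the higher group (at most 8 per list), and the 3 largest such changes are named in the lists of cytokines, NF-kB feedback genes and interferon-inducible genes. The 2 genes most like each member over the 12 livers are named by Pearson r. A few genes that these rules name are not reported here. The labels number the mice of each group, but same-numbered mice did not deviate together (r -0.09 to 0.13 over 18 pairs), so a replicate block was used only as an alternative. No libraries of 1 group agreed within sampling noise. Alternatives were other scalings, other filters, DESeq2 1.42.0, a replicate block, only the libraries compared and leaving out each mouse, and 1 was added after seeing the data (mouse 2 of NaCl/PBS and of NaCl/DEX left out together). In counts simulated for FeSO4/PBS against NaCl/PBS with 200 changed genes of 13561, 198 were recovered at an LFC of 2, with 7 false calls.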

Additional observations from a re-analysis of the deposited data

Results flagged for a closer look

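Among the genes named beside the members, 4 had a response to DEX that differed between FeSO4 and saline mice by the test of that difference (edgeR, FDR of 0.05 or less), and none of the 10 members did. The difference (LFC for DEX in FeSO4 mice minus that in saline mice) was 2.7 for Cxcl11 (SE 0.72, FDR = 0.0403), whose mean fell from 122 to 25.2 normalized counts with DEX in saline mice and stood at 12.4 and 17.6 without and with DEX in FeSO4 mice. It was 1.87 for Irf1 (SE 0.28, FDR = 0.00146), which DEX lowered from 925 to 140 in saline mice and which stood at 252 and 140.5 in FeSO4 mice. For Il1r1 the difference was -1.75 (SE 0.39, FDR = 0.0159), with a rise from 1212 to 3089 under DEX in saline mice and 5496 and 4170 in FeSO4 mice. For Il1b, chosen after its values were seen, it was 4.7 (SE 1.2, FDR = 0.0339), with 92.6 and 1.66 in saline mice and 105 and 54.3 in FeSO4 mice, and it was 3.21 without NaCl/PBS mouse 2. In leave-one-out fits the difference kept its sign for all 4 (Cxcl11 2.12 to 3.25, Irf1 1.67 to 2.10, Il1r1 -2.28 to -1.54, Il1b 3.21 to 5.32). The call of Cxcl11 was lost in most of these fits, for example without NaCl/PBS mouse 1, 2 or 3 (FDR = 0.0804, 0.0659 and 0.0812). It was also lost with the replicate block (FDR = 0.0692). The call of Il1b was lost in several fits, among them those without NaCl/DEX mouse 1, 2 or 3 (FDR = 0.0781, 0.069 and 0.0987). Groups of 3 mice are too small for a test of single outlying livers.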

How the results depend on the processing

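Of 968 LFCs of members recomputed under the alternatives, 876 kept their direction and their side of the threshold, 57 passed the threshold only under the alternative, 7 lost it and 28 changed sign, and the cause was not tested unless stated. Scaling by library size alone moved the median LFC of all genes to -0.34 for FeSO4, -0.18 for DEX in saline mice, -0.18 between the DEX groups and 0.15 for the difference of DEX responses. It gave 2285 genes higher and 5829 lower after FeSO4 (28.2% of the called genes higher against 49.9% with TMM), with 1 member higher and 4 lower, 1776 genes lower with DEX in saline mice (25.8% higher against 47.6%), 34.2% against 51.7% higher between the DEX groups, and 63.7% against 48.3%, with 2 members higher, for the difference of DEX responses. Without a filter on low counts, 4 members were lower after FeSO4, 2 were higher with DEX in saline mice, 99 genes were higher and 71 lower with DEX in FeSO4 mice (1 member lower, Cxcl1), and 683 genes were higher and 776 lower in the difference (6 members higher, 1 lower). A minimum of 10 reads in every library leaves out Cxcl1, Cxcl2, Ccl2 and Ccl24 by construction, and then 1 member was higher after FeSO4, 2 were lower with DEX in saline mice, 0 were higher between the DEX groups and 1 was higher in the difference. DESeq2 called 5 genes higher and 5 lower with DEX in FeSO4 mice, and in the difference 747 genes lower, 4 members higher and 1 lower. With only the libraries compared, 2 members were higher with DEX in saline mice. Without mouse 2 of both saline groups, 4 members were higher after FeSO4, 587 genes were higher and 474 lower with DEX in saline mice, and 215 were higher in the difference. Where no count of all genes stands beside a count of members, the share over all genes is not given here.

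With the replicate number as a block, which the numbers do not warrant, Cxcl1 passed the threshold after FeSO4 (LFC 2.16, FDR = 0.0443), Cxcl10 and Cxcl13 passed between the DEX groups (FDR = 0.0343 and 0.0482), and 1 member, Cxcl10, was higher in the difference (FDR = 0.046), while the LFC of Ccl2 after FeSO4 became 0.28 and that of Ccl6 between the DEX groups became -0.0141. Leaving out 1 mouse at a time gave 3298 to 3807 genes and 2 to 4 members higher after FeSO4 (4 members without NaCl/PBS mouse 2). With DEX in saline mice it gave 1 to 2 members higher, 606 to 1284 genes higher and 578 to 1259 genes lower. With DEX in FeSO4 mice it gave 0 to 1 genes higher. In the difference it gave 229 to 408 genes higher and 308 to 628 lower, with 0 to 2 members higher and 0 to 1 lower. The sign changed in these fits for Ccl2 after FeSO4 (-0.63 to 1.54, and 1.54 without mouse 2 of both saline groups), for Cxcl13 (-1.60 to 0.15) and Ccl24 (-0.36 to 0.11) with DEX in saline mice, for Cxcl2 (-0.46 to 0.15) and Cxcl12 (-0.0663 to 0.23) with DEX in FeSO4 mice, for Ccl6 between the DEX groups (-0.29 to 0.22) and for Cxcl9 in the difference (-0.20 to 0.44). Library size alone turned Ccl9 (-0.21) and Ccl24 (-0.11) after FeSO4, and Ccl6 between the DEX groups, near 0 throughout, was -0.17 with it, -0.0045 with DESeq2 size factors, -0.0052 without the filter, -0.0070 in DESeq2 and -9e-04 with only the libraries compared.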
